A study of Homo sapiens with 2 samples.

Results

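The 9 genes described here, MDM2, CCNG1, CDKN1A, FAS, TP53INP1, ZMAT3, SESN1, RRM2B and XPC, are direct transcriptional targets of the tumour suppressor p53. They were chosen by name and matched by symbol in a gene table of 50229 symbols, where each had 1 row. The table compares 2 poly(A) RNA sequencing libraries of ARP1, a human cell line derived from multiple myeloma, which is a cancer of plasma cells. In 1 library, titled A_si and named siVCP here, the treatment is given as VCP knockdown. In the other, titled A_NC and named siNC here, it is given as control. A library labelled siVCP or siNC below is the one with that treatment label. VCP encodes an ATPase that pulls ubiquitin-marked proteins out of complexes and membranes. The labels used here give neither the time and dose of the treatment nor the p53 status of ARP1, and the transcript of p53 itself was not analysed here.

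p53 is a transcription factor that is kept scarce in unstressed cells by MDM2, a ubiquitin ligase that marks it for the proteasome. DNA damage and other stresses release it from MDM2, and it then raises genes that halt the cell cycle, repair DNA, supply nucleotides, restrain growth signalling or trigger cell death. Several of its targets, MDM2 among them, act back on p53 and end the response. In myeloma, loss of p53 function is known as a mark of aggressive disease.

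Since a group is 1 library, the differences below have no replicate check, carry no p-value and hold for these libraries only. Levels are in FPKM (fragments scaled to transcript length and sequencing depth). The log2 ratio has 1 added to each FPKM value and runs siVCP over siNC, which shrinks differences of weakly expressed genes, and a fold is the plain ratio of FPKM values. Brackets hold 95% intervals that cover counting error only. Counts summed to 68872657 in the siVCP library and 72566092 in the siNC library. It was inferred that 4 of these counts stand for 1 fragment, so the counts given below exceed the fragments behind them. VCP itself was higher in the library labelled as its knockdown, at 65.9 FPKM against 47.7 FPKM in the library labelled siNC (1.38-fold [1.33 to 1.43]), so higher and lower below follow the labels, and a loss of VCP transcript was not seen. Whether the labels of the libraries were exchanged was not tested, and an exchange would turn every direction given below. All 8 plasma cell markers reached an FPKM of 1. Their summed level was 1618 FPKM in the siVCP library and 1836 FPKM in the siNC library. JCHAIN had the widest gap in FPKM, at 485 FPKM against 712 FPKM in the siNC library. The other 7 summed to 1133 FPKM in the siVCP library and 1123 FPKM in the siNC library, but did not move together. PRDM1 (46.6 against 69.8 FPKM in the siNC library) and CD38 (15.3 against 21.6 FPKM) were lower too. SDC1 (257 against 223 FPKM), IRF4 (186 against 178 FPKM) and TNFRSF17 (48.5 against 46.8 FPKM) were higher. XBP1 (434 against 437 FPKM) and MZB1 (145 against 146 FPKM) were close. The extraction protocol in the labels speaks of adipose material, and all 4 adipocyte markers looked at were at 0 in both libraries. Of the other 27 markers, for earlier B cells, T and NK cells, myeloid, stromal, erythroid and epithelial cells, 4 reached an FPKM of 1, the highest at 4.94 FPKM. Fewer cells expressing a gene and less RNA per cell cannot be told apart in such bulk libraries.

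Most of the 9 chosen genes were on the lower side in the library labelled siVCP. Of the 9, 8 had a log2 ratio below 0, as had 52.8% of the genes that reached an FPKM of 1 in either library. The counting interval lay wholly below 0 for 7 of the 9 members, among them XPC at only 1.17-fold lower. The share of all genes with such an interval was not computed, so this count cannot be set against all genes. The 3 with the lowest log2 ratios were TP53INP1 at -0.99, the cyclin gene CCNG1 at -0.98 and the RNA-binding protein gene ZMAT3 at -0.86. CDKN1A, which encodes the cell cycle inhibitor p21, was the single member above 0, at 0.10. The median over the 9 members was -0.50, against -0.02 over the 11645 genes tested, those that reached an FPKM of 1 in either library. Counted at 1.5-fold on the log2 ratio scale, 3 members were lower and 0 were higher in the siVCP library, where 5.87% of all genes tested were lower and 4.53% were higher. By plain FPKM ratio 6 members were at least 1.5-fold lower and 0 were higher, where 12.3% of all genes tested were lower and 6.89% were higher. FAS, under an FPKM of 1 in both libraries, is counted among the 9 but did not pass the filter, and TP53INP1 and ZMAT3 passed it only through the library labelled siNC.

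**Figure D1:**
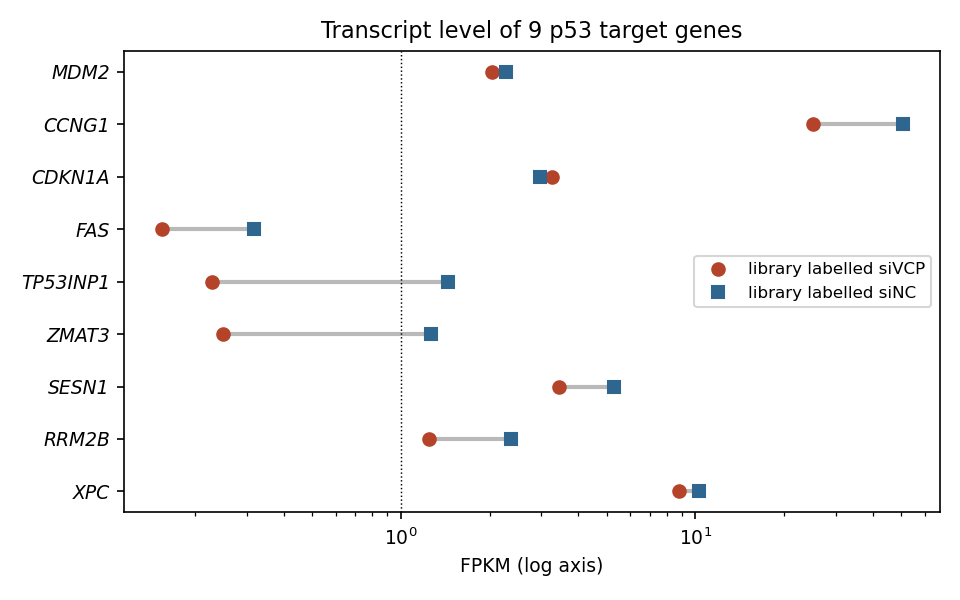
Transcript level of each of the 9 genes in FPKM on a log axis, as a circle for the library labelled siVCP and a square for the library labelled siNC, with a dotted line at an FPKM of 1. The circle lies left of the square for every gene but CDKN1A, and the gaps are widest for TP53INP1 (0.229 against 1.44 FPKM) and ZMAT3 (0.248 against 1.27 FPKM).

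p53 binds a response element made of a pair of 10-base motifs, and the windows around the annotated start sites of the members were searched for it. The motif is known as the p53 consensus decamer: 3 purines, C, 2 bases that are A or T, G, and 3 pyrimidines. It reads the same on both strands. RefSeq windows (GRCh38.p14) of 300 bases, 250 before and 50 after a start site, were used for 7 members, 16 windows in all. Motifs had to hold the C and the G, could each have up to 3 mismatches, and could lie up to 13 bases apart. These are shown because they are the closest pairs found in MDM2, FAS, SESN1 and ZMAT3, with the paired motifs in capitals and 40 bases on either side, 5′ to 3′ on the strand of the gene.
MDM2: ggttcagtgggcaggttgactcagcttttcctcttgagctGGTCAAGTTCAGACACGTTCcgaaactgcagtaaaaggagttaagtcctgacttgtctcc
FAS: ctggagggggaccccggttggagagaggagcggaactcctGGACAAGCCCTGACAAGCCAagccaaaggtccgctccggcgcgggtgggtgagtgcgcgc
SESN1: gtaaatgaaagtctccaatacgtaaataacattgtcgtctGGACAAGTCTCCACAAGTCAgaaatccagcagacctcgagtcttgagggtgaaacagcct
ZMAT3: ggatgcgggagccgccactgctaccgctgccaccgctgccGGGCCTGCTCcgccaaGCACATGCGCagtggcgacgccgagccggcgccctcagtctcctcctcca

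The MDM2 pair lies at chr12:68808923-68808942 on the plus strand, in an intron of MDM2 in GENCODE 29, with 2 mismatches in 20 bases and no gap. Relative to an internal start site it covers positions -94 to -75. The FAS pair lies at chr10:88991309-88991328 on the plus strand, over an annotated exon of FAS, also with 2 mismatches and no gap. The SESN1 pair lies at chr6:109009018-109009037 on the minus strand, in an intron, with 3 mismatches and no gap. Of all 35116 windows, 2.93% held a pair with up to 2 mismatches at any gap searched, and 0.285% held one without a gap. At up to 3 mismatches the shares were 12.8% at any gap and 1.12% without one. These shares are per window, and MDM2 had 4 windows, FAS and SESN1 3 each. The ZMAT3 pair, at chr3:179071867-179071892 on the minus strand over an annotated exon, has 3 mismatches and a gap of 6 bases. The closest pairs of CDKN1A and XPC had 4 mismatches, which 34.5% of all windows reached at any gap, and that of CCNG1 had 6. CDKN1A had 1 window, at chr6:36678464-36678763, which lies inside the gene. The start of the gene at 36676460 and the sequence before it were thus not searched. For all members, elements outside the windows would be missed. No window on chromosome 8 was used for the members, so TP53INP1 and RRM2B, which lie there, were not searched.

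MDM2 and CCNG1 feed back on p53. MDM2 (ENSG00000135679, chromosome 12, 68808177 to 68850686, plus strand) had 2.04 FPKM in the siVCP library and 2.28 FPKM in the siNC library, from 2264 and 2673 counts. It was 1.12-fold lower [0.999 to 1.25], an interval that reaches 1. Of all genes tested, 39.0% had a log2 ratio as low or lower.

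CCNG1 encodes cyclin G1, which brings the phosphatase PP2A to MDM2 and in that way helps to hold p53 down. CCNG1 (ENSG00000113328, chromosome 5, 163437569 to 163446151, plus strand) was the most abundant member and had 25.1 FPKM in the siVCP library, against 50.5 FPKM in the siNC library. The counts were 6421 and 13631. That is 2.01-fold lower [1.90 to 2.14], with 165 of 11645 genes (1.42%) at or below its log2 ratio. No other row with a count overlapped it. CCNG1 made up 56.4% of the summed FPKM of the 9 members in the siVCP library and 65.8% in the siNC library. Its paralog CCNG2 was lower as well, at 0.891 FPKM against 1.70 FPKM in the siNC library (1.90-fold lower [1.55 to 2.36]). PPP2R5C, a regulatory subunit of PP2A, was 1.19-fold lower [1.08 to 1.31].

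CDKN1A is the classical arrest gene of the pathway, since p21 blocks cyclin-dependent kinases and through them keeps RB and the DREAM complex repressive. CDKN1A (ENSG00000124762, chromosome 6, 36676460 to 36687337, plus strand) had 3.26 FPKM in the siVCP library and 2.98 FPKM in the siNC library, from 807 and 777 counts. The fold of 1.09 [0.894 to 1.34] spans 1, so at this depth no difference was detectable. The related inhibitor genes differed more. CDKN1C (p57) had 2.51 FPKM in the siVCP library against 4.99 FPKM in the siNC library (1.98-fold lower [1.60 to 2.47]). CDKN1B (p27), far more abundant, had 37.6 FPKM against 53.5 FPKM (1.42-fold lower [1.35 to 1.51]). Among the partners of p21, CDK2 and CDK4 had log2 ratios of 0.20 and 0.18, the replication clamp gene PCNA had 0.22, and CCNE1, the cyclin that drives CDK2, had 0.53.

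**Figure D2:**
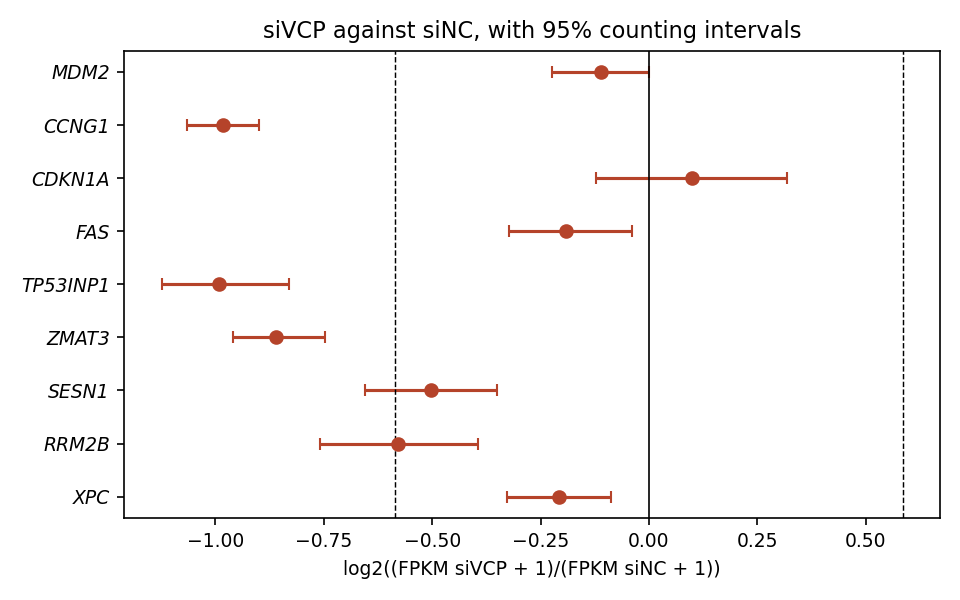
Log2 ratio of each of the 9 genes, siVCP over siNC, with its 95% counting interval as a bar and dashed lines at 1.5-fold. The intervals of TP53INP1, CCNG1 and ZMAT3 lie wholly beyond the lower line, those of RRM2B and SESN1 cross it, and those of MDM2 and CDKN1A reach 0.

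FAS, TP53INP1 and ZMAT3 were the weakly expressed members. FAS encodes a death receptor of the cell surface that starts the caspase cascade when it binds its ligand. FAS (ENSG00000026103, chromosome 10, 88990531 to 89017059, plus strand) had 0.154 FPKM in the siVCP library and 0.318 FPKM in the siNC library, from only 73 and 157 counts. Its plain fold, 2.07-fold lower [1.16 to 3.82], has the widest interval among the members relative to its size, and its log2 ratio was -0.19. ACTA2 overlaps FAS on the other strand and had 55 counts in the siVCP library and 60 in the siNC library, so FAS is uncertain on that account too. The ligand gene FASLG was at 0 in both libraries. FADD, the adaptor that binds the receptor, had 34.3 FPKM in the siVCP library against 24.3 FPKM in the siNC library (1.41-fold higher [1.29 to 1.54]). The initiator caspase gene CASP8 had a log2 ratio of -0.09, and CFLAR, which encodes its inhibitor FLIP, was 2.09-fold lower [1.86 to 2.35].

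TP53INP1 encodes a nuclear protein that helps p53 towards its cell death programme and also takes part in autophagy. TP53INP1 (ENSG00000164938, chromosome 8, 94925972 to 94949378, minus strand) had 0.229 FPKM in the siVCP library, against 1.44 FPKM in the siNC library, from 107 and 711 counts. This was the largest plain fold among the members, 6.30-fold lower [4.18 to 9.84]. NDUFAF6 overlaps it on the other strand and had 680 and 559 counts, and whether the counting used strand is not known, so reads of the overlap may have gone to either gene. Rows that overlap MDM2, SESN1 and XPC had at most 32 counts in a library, against at least 1461 for these members. The paralog TP53INP2 was 1.27-fold lower [1.12 to 1.44].

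ZMAT3 encodes a zinc finger protein that binds RNA and alters splicing and stability of its targets. ZMAT3 (ENSG00000172667, chromosome 3, 178960121 to 179071831, minus strand) had 0.248 FPKM in the siVCP library, against 1.27 FPKM in the siNC library, from 233 and 1247 counts. It was 5.10-fold lower [3.84 to 6.86], and no other row with a count overlapped it.

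**Figure D3:**
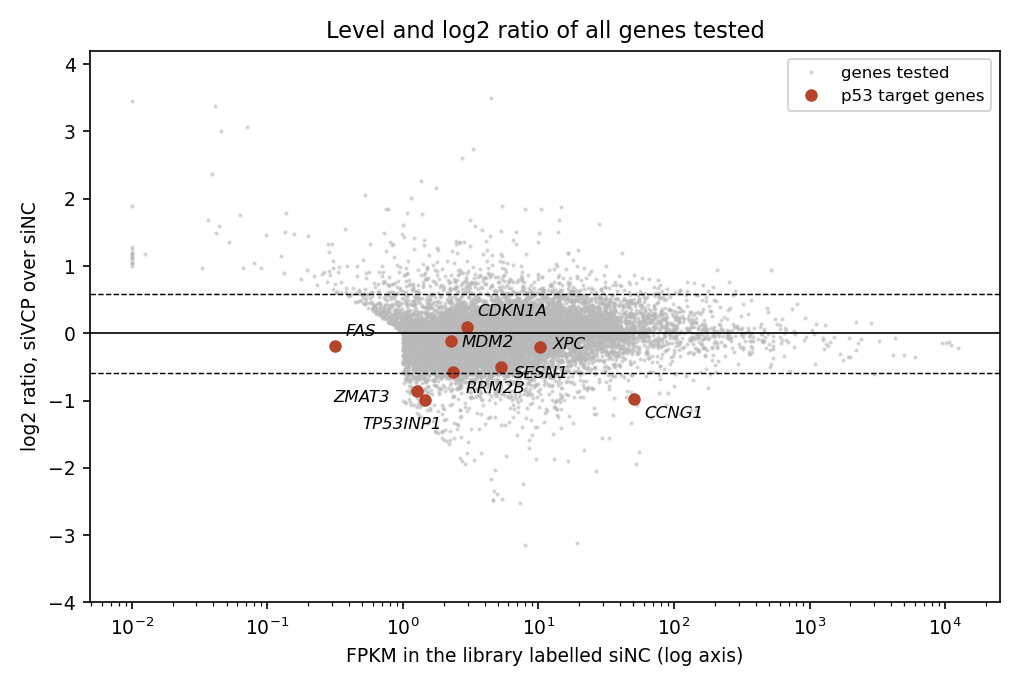
FPKM in the library labelled siNC on a log axis against the log2 ratio, siVCP over siNC, with all 11645 genes tested in grey, the 9 members in red and dashed lines at 1.5-fold. Genes under 0.01 FPKM are drawn at 0.01; CCNG1 stands out at high level, TP53INP1 and ZMAT3 lie near an FPKM of 1, and MDM2, CDKN1A and XPC lie within the bulk.

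SESN1 encodes sestrin 1, which restrains the growth kinase mTORC1 and limits oxidative damage. SESN1 (ENSG00000080546, chromosome 6, 108986437 to 109094819, minus strand) had 3.45 FPKM in the siVCP library and 5.31 FPKM in the siNC library, from 1461 and 2370 counts. It was 1.54-fold lower [1.35 to 1.76]. The sestrin family was split. SESN3 was lower too, at 3.22 FPKM against 5.51 FPKM in the siNC library (1.71-fold lower [1.56 to 1.88]). SESN2, also a p53 target and the most abundant sestrin gene here, had 30.7 FPKM in the siVCP library against 24.0 FPKM in the siNC library (1.28-fold higher [1.20 to 1.36]).

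RRM2B and XPC serve DNA repair. RRM2B encodes p53R2, the small subunit of ribonucleotide reductase that supplies nucleotides outside S phase. RRM2B (ENSG00000048392, chromosome 8, 102204502 to 102238961, minus strand) had 1.25 FPKM in the siVCP library and 2.36 FPKM in the siNC library, from 559 and 1111 counts. It was 1.89-fold lower [1.53 to 2.33], and its log2 ratio of -0.58 fell just short of the 1.5-fold line. The other subunits of the enzyme had values close to each other in the libraries: RRM1, the large subunit gene, had 28.8 FPKM against 28.6 FPKM in the siNC library, and RRM2, the small subunit gene of dividing cells, had 40.2 FPKM against 36.6 FPKM.

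XPC encodes the protein that recognises distorted DNA at the start of global nucleotide excision repair. XPC (ENSG00000154767, chromosome 3, 14145147 to 14178601, minus strand) had 8.81 FPKM in the siVCP library and 10.3 FPKM in the siNC library, from 3372 and 4166 counts, and was 1.17-fold lower [1.07 to 1.28]. Of all genes tested, 28.3% had a log2 ratio as low or lower. Its partners RAD23B and CETN2 had log2 ratios of 0.05 and 0.14. DDB2, a p53 target that hands ultraviolet lesions to XPC, had 0.02, and DDB1 had 0.24.

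Other p53 targets, taken from lists by function, lay on both sides of 0. Of 54 such genes, 43 reached an FPKM of 1. Of these, 2 were at least 1.5-fold lower and 0 were higher on the log2 ratio scale, where 5.87% and 4.53% of all genes tested were, with a median of 0.02, 18 below 0 and 25 above. Among the 16 apoptosis genes that passed (of 20 listed), BBC3, which encodes the BH3-only protein PUMA, had 3.37 FPKM in the siVCP library against 6.34 FPKM in the siNC library (1.88-fold lower [1.60 to 2.22]). APAF1, the core of the apoptosome, had a log2 ratio of -0.57, and the decoy receptor gene TNFRSF10D had -0.40. By plain ratio APAF1 was 1.80-fold lower [1.54 to 2.10]. On the other side were TRIAP1 (0.56), the TRAIL receptor gene TNFRSF10A (0.46) and PMAIP1, which encodes NOXA (0.38). By plain ratio TRIAP1 was 1.51-fold higher [1.33 to 1.72]. A count by plain ratio, as given for the members, was not made for the 43 genes. The median of that list was 0.04.

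Of 12 listed arrest and growth targets 10 passed, 0 of them at least 1.5-fold apart on the log2 ratio scale, with a median of 0.01. Of all genes tested, 5.87% were lower and 4.53% were higher at that fold. PRDM1, which is also a plasma cell regulator, had a log2 ratio of -0.57, E2F7 had -0.43 and BTG2 had -0.09. TSKU had 0.44, BTG1 had 0.34 and PLK3 had 0.22. All 9 repair targets passed and 0 were 1.5-fold apart on the log2 ratio scale, with a median of -0.02. REV3L, the catalytic subunit gene of translesion polymerase zeta, had -0.45 and ASCC3 had -0.28, whereas RPS27L had 0.15 and FANCC 0.05. By plain ratio REV3L was 1.90-fold lower [1.58 to 2.28]. Of 14 metabolic and redox targets 9 passed, with a median of 0.04. The lysosomal fucosidase gene FUCA1 was 1.79-fold lower [1.46 to 2.21], and ABHD4 had a log2 ratio of -0.30. SCO2, needed to assemble cytochrome c oxidase, had 0.49, SESN2 had 0.34 and PRKAB1 had 0.19.

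The regulators of p53 were mixed. Of 12 inhibitors and feedback genes, CCNG1 included, 2 were at least 1.5-fold lower and 1 was higher on the log2 ratio scale. Of all genes tested, 5.87% were lower and 4.53% were higher at that fold. The median of the list was -0.17. MDM4, the MDM2 relative that binds and masks the activation domain of p53, had 0.809 FPKM in the siVCP library, against 2.26 FPKM in the siNC library (2.79-fold lower [2.36 to 3.31]). The ubiquitin ligase gene TRIM24 had a log2 ratio of -0.50, and by plain ratio it was 1.60-fold lower [1.42 to 1.80]. TRIM32, another ubiquitin ligase gene, was 1.88-fold higher [1.58 to 2.24], PRMT5 had 0.45, and USP7, the protease that stabilises MDM2, had 0.11. Of 16 activators and cofactors 14 passed and 0 were 1.5-fold apart on the log2 ratio scale, with a median of -0.08. The damage kinase genes ATM and CHEK2 had -0.50 and -0.46, and by plain ratio ATM was 2.12-fold lower [1.85 to 2.45]. The p53 binding protein gene TP53BP2 had -0.30. USP10, which removes ubiquitin from p53, had 0.51, TP53BP1 had 0.28, and CDKN2A, the locus of p16 and the MDM2 inhibitor ARF, had 0.23.

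Genes that p53 represses through p21 lay on both sides of 0 as well. All 14 passed, with 10 below 0 and 4 above and a median of -0.09. At 1.5-fold on the log2 ratio scale, 3 were lower and 0 were higher, where 5.87% of all genes tested were lower and 4.53% were higher. MKI67, CENPF and TOP2A had log2 ratios of -1.22, -0.95 and -0.83, while CCNB1, CDC20 and PLK1 had 0.30, 0.24 and 0.23. The transcripts of the first 3 are long (12678, 10307 and 5758 bases) and those of the other 3 shorter (2169, 1777 and 2227 bases). Over all genes the log2 ratio moved with length, as described below, and its part in this split was not tested. Among the 24 paralogs and partners of the members, 22 passed. On the log2 ratio scale 4 were at least 1.5-fold lower (MDM4, CDKN1C, SESN3 and CFLAR) and 0 were higher. The median was 0.04 and the mean -0.08. By plain ratio CCNG2 was past 1.5-fold as well (1.90-fold lower [1.55 to 2.36]).

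**Figure D4:**
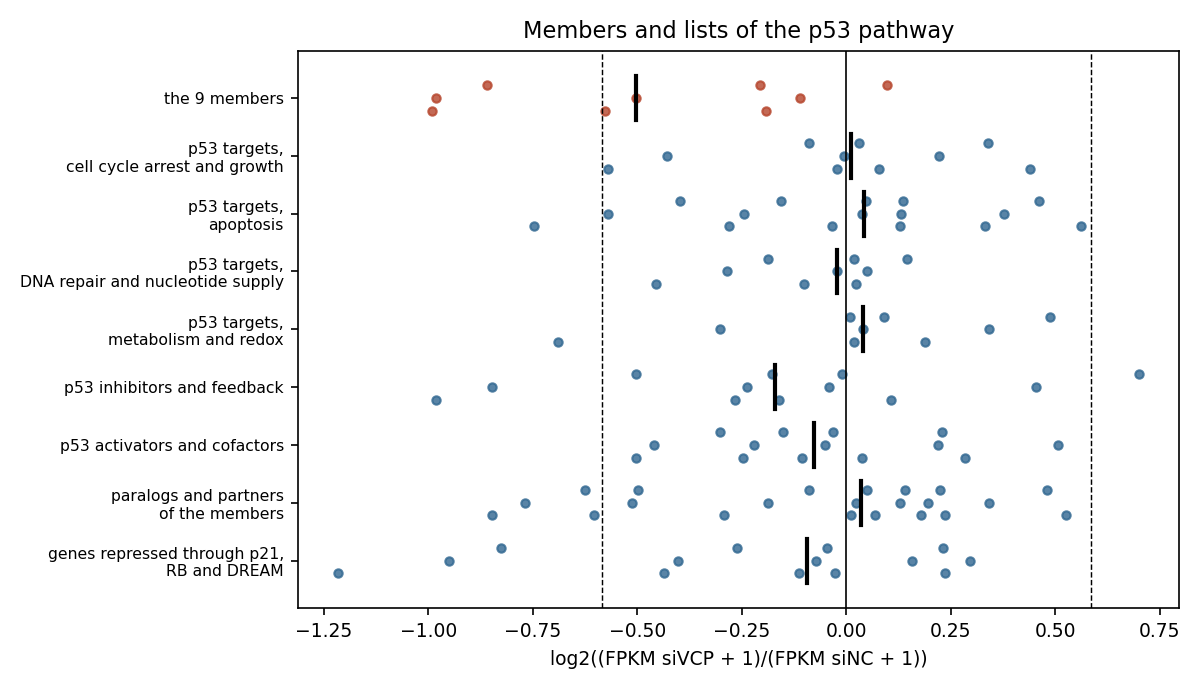
Log2 ratio, siVCP over siNC, of each gene in the 9 members (top row, red) and in 8 lists of the p53 pathway (blue, genes tested), with a black bar at each median and dashed lines at 1.5-fold. The median of the members is at -0.50 and those of the lists lie between -0.17 and 0.04; points are spread in height only to keep them apart.

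Log2 ratios in these libraries moved with transcript length and GC content. The median over all genes was -0.16 in the fifth with the longest transcripts (5439 bases or more) and 0.08 in the fifth with the shortest (up to 1863 bases), and it was -0.19 in the fifth with the lowest GC content (up to 41.7%) and 0.07 in the fifth with the highest. TP53INP1 (5638 bases, 39.6% GC) and ZMAT3 (9406 bases, 39.5% GC) both fell among the 658 long and GC-poor genes, where the median log2 ratio was -0.30 and 12.5% of genes were at least 1.5-fold lower. Less that median, TP53INP1 was at -0.69 and ZMAT3 at -0.56. CCNG1 (2458 bases, 38.2% GC) belonged to 256 shorter and GC-poor genes, of which 2.34% were at least 1.5-fold lower, and stayed at -0.92. RRM2B (4931 bases, 36.4% GC) was at -0.40 and SESN1 (3509 bases, 43.4% GC) at -0.45. MDM2 (12633 bases, 41.9% GC), the longest of the members, turned to 0.08, and CDKN1A (2267 bases, 58.1% GC) turned to -0.06. XPC (3832 bases, 52.5% GC) was at -0.24. Among the lower genes of the lists, MDM4 (10073 bases), CFLAR (14672 bases) and SESN3 (9558 bases) also have long transcripts. So have ATM (13147 bases), REV3L (10943 bases), TRIM24 (8410 bases), APAF1 (7055 bases) and CCNG2 (5526 bases), at least 1.5-fold lower by plain ratio. BBC3 (1838 bases), CDKN1C (1936 bases) and FUCA1 (2047 bases) have shorter ones. The part of length and GC content in the differences was not tested.

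**Figure D5:**
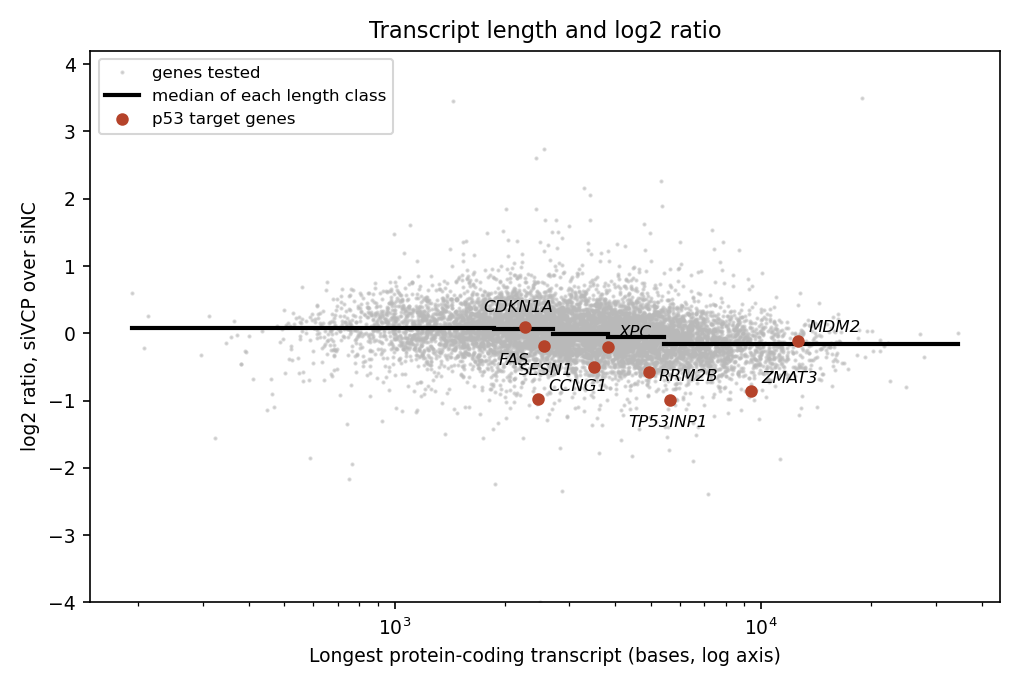
Length of the longest protein-coding transcript in bases, on a log axis, against the log2 ratio, siVCP over siNC, for the genes tested (grey) and the 9 members (red), with black lines at the medians of 5 length classes of equal size. The medians step down to -0.16 in the longest class; CCNG1 lies at -0.98 in the second class, whose median is 0.07, and MDM2, the longest member, at -0.11.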

How the data were processed

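Per the labels' protocols, poly(A) RNA went into paired-end sequencing, 1 library per group. HISAT2 2.0 and StringTie 1.3.0 appear in the submitters' processing notes, with no role or order. Build and annotation are not given in the sources used here. Among deposited gene IDs, 58394 were in GENCODE 29, and 90.5% of those shared a start or end with it, so coordinates are given as GRCh38.

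The authors normalized to FPKM, and their small floor on rows with a count of 0 was set to 0. The deposited counts are whole-number estimated counts that pile up at 4 (1205 rows in siVCP, against 417 at 3 and 244 at 5). It was inferred, not stated by a source, that 1 fragment adds 4 counts. Intervals are exact conditional binomial (Clopper-Pearson) 95% intervals of counts divided by 4. Only counting error enters them, and without molecular identifiers reads may repeat a molecule.

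Rows sharing a symbol were summed. Genes tested had to reach an FPKM of 1 in either library. No test was run, as groups hold 1 library each. Members, lists and settings were chosen with earlier results of these data known. Named genes were VCP, all members, up to 3 highest and 3 lowest log2 ratios per list, and partners beside their member. Transcript length and GC content came from the longest basic protein-coding transcript in GENCODE 29, which 83.1% of genes tested and all members had. In simulated libraries of 11645 genes, 0.882% of unchanged genes passed 1.5-fold. Of 200 genes changed 2.5-fold, all with at least 20 fragments, 99.5% did so in the right direction by plain ratio. Both simulated libraries were drawn from the same mean per gene, apart from the set changes, with counting error only. The 0.882% is therefore not an error rate for the real libraries, which can differ in other ways. Tools were matplotlib 3.10.9, scipy 1.17.1, pandas 2.3.3, numpy 2.4.6 and Python 3.11.15.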

Additional observations from a re-analysis of the deposited data

How the results depend on the processing

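No paired analysis was possible because siVCP and siNC have 1 library each, which also means that none could be left out. VCP stayed within its counting interval under each of the 9 other ways of computing it. The median of the members was -0.72 with a pseudocount of 0.1 and -0.24 with one of 5, and lay between -0.60 and -0.42 under the other 7. The count of members at least 1.5-fold lower, 3 as reported, was 6 with a pseudocount of 0.1, 1 with one of 5, 1 of 3 members with an FPKM of at least 5, 5 with CPM from the counts, 0 at 2-fold and 6 by plain FPKM ratio. It was 2 of 8 members after subtracting the median of genes of like length and GC content. The share of all genes lower, 5.87% as reported, was 11.6%, 1.21%, 4.61%, 10.5%, 1.31%, 12.3% and 3.65% under these settings in the same order. No setting gave a member at least 1.5-fold higher. Of 101 genes of the other lists (108 with CPM), 9 were at least 1.5-fold lower. With pseudocounts of 0.1 and 5, CPM, 2-fold and the plain ratio, 14, 2, 15, 1 and 14 were. Those higher numbered 1, and 2, 0, 2, 0 and 2 under these settings. They numbered 0 with an FPKM of at least 5, 2 after rescaling to the same sum and 2 with the overall median set to 0. Those lower were 6 of 63 with an FPKM of at least 5 and 7 of 101 with the length and GC content setting. Of all genes tested, 4.53% were higher as reported and 6.89% by plain ratio, and this share was not computed for the other settings. Of 74 recomputed log2 ratios of members, 16 left their counting interval and 2 changed sign, MDM2 to 0.08 and CDKN1A to -0.06, both with the length and GC content setting. The pseudocount decides most for TP53INP1, which had -2.23 with 0.1 and -0.30 with 5, and for ZMAT3, with -1.97 and -0.26. CCNG1 had -1.01 and -0.88. FAS, at 73 and 157 counts in the siVCP and siNC libraries, is limited by depth.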
